A study of Mus musculus with 2 samples.

Results

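The interferon-inducible GTPases described here are 10 genes of 2 families, the guanylate-binding proteins Gbp2, Gbp2b, Gbp3, Gbp4, Gbp5 and Gbp7 and the immunity-related GTPases Igtp, Irgm1, Irgm2 and Iigp1. They were taken by gene symbol from the 34097 genes of the count matrices, and all 10 were found. The data are droplet single-cell RNA counts (10x Genomics) from 2 tumours of LLC, the mouse Lewis lung carcinoma line. One tumour is the control, labelled NC. The other carried an shRNA, a short hairpin RNA that silences a gene, against Gfpt2, an enzyme of the hexosamine pathway, and is called the knockdown. Each group is 1 library, so no difference has a replicate check, no test was possible, and every interval covers counting error only. The labels used here give no host strain, age or number of pooled animals, and no clone or hairpin sequence. Where 2 values stand together without a label, the control comes first and the knockdown second.

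Guanylate-binding proteins are large GTPases that assemble on bacteria and on the vacuoles of parasites, open them and help inflammasomes to sense what is inside. Immunity-related GTPases include regulators such as Irgm1, Irgm2 and Igtp (also called Irgm3), which sit on the cell's own membranes and hold the effectors inactive, and effectors such as Iigp1 (also called Irga6), which coat and break foreign vacuoles. Genes of both families are switched on by interferon gamma, and many by type I interferon as well.

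The promoters are shown first because these genes are defined by their response to interferon. RefSeq windows on GRCm38.p6, from 250 bases before to 50 bases after the annotated start, were found for 8 of the 10 genes and not for Gbp4 and Iigp1. GAAANNGAAA, the core of the interferon-stimulated response element, was searched on both strands and occurred in the promoters of all 8 genes. It occurred in 3.44% of all 32851 windows of that length. The 40 bases around the first match are given 5′ to 3′ along the gene, with matching bases in capitals.
Gbp2, chr3:142620589-142620628, plus strand: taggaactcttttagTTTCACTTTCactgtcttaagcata
Gbp2b, chr3:142594695-142594734, plus strand: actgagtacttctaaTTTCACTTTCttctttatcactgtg
Gbp3, chr3:142559984-142560023, plus strand: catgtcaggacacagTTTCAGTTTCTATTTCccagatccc
Gbp5, chr3:142496754-142496793, plus strand: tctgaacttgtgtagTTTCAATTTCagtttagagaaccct
Gbp7, chr3:142530268-142530307, plus strand: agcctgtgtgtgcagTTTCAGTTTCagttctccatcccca
Igtp, chr11:58199507-58199546, plus strand: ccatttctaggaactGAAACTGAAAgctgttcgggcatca
Irgm1, chr11:48871426-48871465, minus strand: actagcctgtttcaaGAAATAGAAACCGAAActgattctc
Irgm2, chr11:58214898-58214937, plus strand: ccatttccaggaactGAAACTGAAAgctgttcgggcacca

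The 5 Gbp genes with a window carried the element as its reverse complement (TTTCNNTTTC), and the 3 Irg genes carried it in the forward direction. Gbp3 and Irgm1 each held 2 overlapping copies. The first matching base lay 59 bases before the start in Gbp2, 137 in Gbp2b, 45 in Gbp3, 165 in Gbp5, 53 in Gbp7, 34 in Igtp, 30 in Irgm1 and 64 in Irgm2. A second RefSeq window of Gbp3 held no match. TTCNNNGAA, the core of the gamma-activated site, reads the same on both strands. It occurred in 4 of the 8 genes (Gbp5, Gbp7, Igtp and Irgm2) and in 8.3% of all windows, and in Igtp and Irgm2 it ended just before the first base of the other element. The windows of Igtp and Irgm2, neighbours on chromosome 11, were 73.5% identical, and every other pair was at most 54.2% identical. Gbp5, Gbp7, Gbp3, Gbp2b and Gbp2 lie in that order on chromosome 3, while Gbp4 lies on chromosome 5 beside Gbp8 and Gbp9. A match is a stretch of letters, not a measured binding site.

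**Figure D1:**
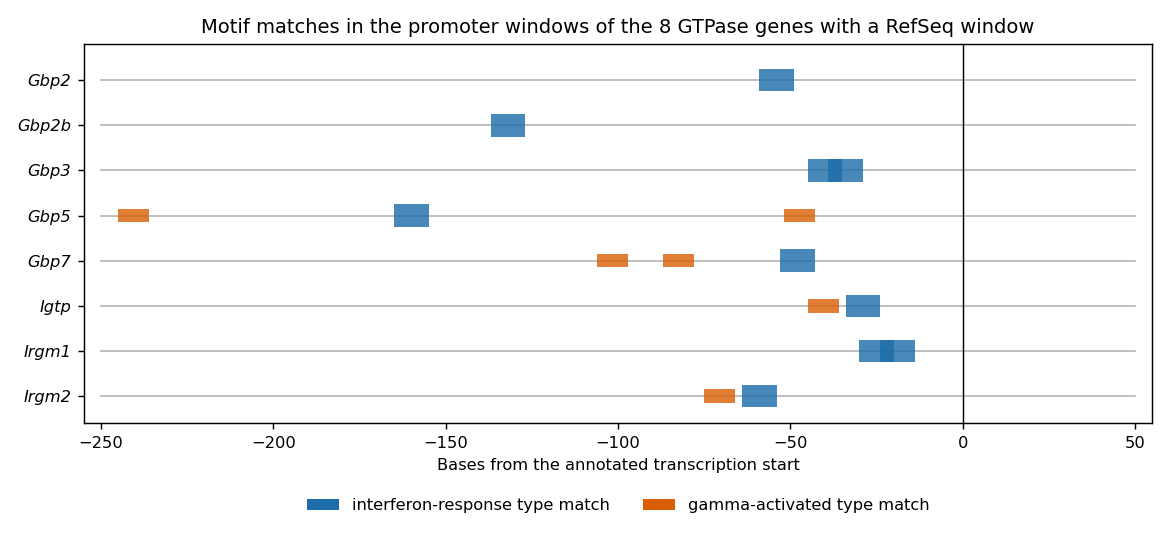
Motif matches in the promoter windows of the 8 GTPase genes that have one; the horizontal axis is the distance in bases from the annotated start (black line), blue bars are matches to the interferon-response core and orange bars matches to the gamma-activated core. The blue match lies within 64 bases of the start in 6 genes and at 137 and 165 bases in Gbp2b and Gbp5.

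The full windows of Gbp2 and Gbp2b are given because these neighbours share the same 10 matching bases but were highest in different cell classes; capitals again mark the matches.
Gbp2, chr3:142620413-142620712, plus strand: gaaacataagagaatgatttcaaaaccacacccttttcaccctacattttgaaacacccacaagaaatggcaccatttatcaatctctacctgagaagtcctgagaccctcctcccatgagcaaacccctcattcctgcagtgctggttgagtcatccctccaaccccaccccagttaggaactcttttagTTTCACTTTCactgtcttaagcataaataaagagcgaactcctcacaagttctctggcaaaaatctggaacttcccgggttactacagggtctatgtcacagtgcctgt
Gbp2b, chr3:142594597-142594896, plus strand: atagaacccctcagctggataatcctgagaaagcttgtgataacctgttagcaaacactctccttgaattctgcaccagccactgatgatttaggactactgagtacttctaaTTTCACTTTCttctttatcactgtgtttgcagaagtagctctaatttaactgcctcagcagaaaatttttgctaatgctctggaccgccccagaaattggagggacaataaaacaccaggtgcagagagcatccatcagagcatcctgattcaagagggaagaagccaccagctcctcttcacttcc
When aligned, these 2 promoters were 49.6% identical, and neither held a gamma-activated match.

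Cells were sorted into classes by raw UMI counts, a UMI being 1 counted RNA molecule. Macrophages held at least 10 C1qa, C1qb and C1qc UMIs per 10000 (3858 and 4414 cells), and T cells at least 2 Cd3d, Cd3e and Cd3g UMIs (657 and 529). Tumour-like cells held no Ptprc UMI, fewer than 5 Lyz2 UMIs per 10000 and at least 5000 UMIs in all (4948 and 5142). Median depth per cell was 5420 and 3938 UMIs in macrophages, 2794 and 2547 in T cells and 18733.5 and 14763.5 in tumour-like cells. Levels are given as CPM, the UMIs of a gene per 1000000 UMIs of the class. In tumour-like cells Gfpt2 gave 205 and 55 UMIs, a log2 ratio of knockdown to control of -1.66 (95% counting interval -2.11 to -1.22). The libraries shared 37 cell barcodes. Of 7 LLC markers, tumour-like cells held Hmga2 (221 and 218 CPM) and Twist1 (101.5 and 118.8 CPM), while Krt7, Krt8, Krt18, Epcam and Igf2bp1 were at 1.10 CPM or less. The 7 fibroblast markers summed to 2590 and 2898 CPM there, so the class is named by its gate alone. Xist, the RNA of the inactive X chromosome, stood at 2.54 and 3.31 CPM in tumour-like cells, against 518 and 498 CPM in macrophages with at least 100 C1q UMIs per 10000, 490 and 565 CPM in T cells and 712.5 and 782.2 CPM in T cells with little tumour RNA (defined next).

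The macrophage and T cell gates held tumour RNA in unequal amounts in the 2 libraries. In macrophages Hmga2 stood at 29.3 and 87.1 CPM, and the 7 LLC markers summed to 40.5 and 120.5 CPM. Cells with 10 to 100 C1q UMIs per 10000 made up 18.5% of the control gate (exact 95% interval 17.3 to 19.8) and 34.4% of the knockdown gate (32.9 to 35.8). Above that, Hmga2 was 12.4 and 18.0 CPM over 3144 and 2898 cells. In T cells Hmga2 ran the other way, at 152.5 and 66.3 CPM. The main macrophage results are therefore also given for cells with at least 100 C1q UMIs per 10000, called C1q-high. The main T cell results are also given for cells with fewer than 5 UMIs of Hmga2, Twist1, Col1a1 and Col3a1 per 10000, called low-tumour-RNA T cells, where Hmga2 was 22.3 and 7.30 CPM. Both sets were chosen after seeing the data.

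Levels are compared here for 1 gene across classes, not between genes, and highest and lowest refer to macrophages, T cells and tumour-like cells, not to other cells of the tumours. The guanylate-binding proteins were not all highest in the same cell class. Gbp2, which takes part in the release of bacteria from vacuoles, was highest in tumour-like cells, at 299 and 373 CPM. It stood at 119 and 121 CPM in C1q-high macrophages and at 92.5 and 60.6 CPM in low-tumour-RNA T cells. The tumour-like level was 2.52 times that of C1q-high macrophages in the control and 3.09 times in the knockdown.

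Gbp2b, formerly named Gbp1 and a close relative of Gbp2, was highest in macrophages in both tumours. It gave 28.0 and 54.8 CPM in C1q-high macrophages, but only 13 UMIs in 4948 and 39 UMIs in 5142 tumour-like cells. T cells gave 1 and 3 UMIs, and low-tumour-RNA T cells 0 and 1. The tumour-like level was 0.452% and 0.82% of the C1q-high level. By the same measure, 9 macrophage markers that no gate used ran from 0.357% (Mrc1) to 0.990% (Cd68) in the control and from 0.435% (Mrc1) to 1.22% (Cd68) in the knockdown, and the share of Gbp2b lay within both ranges. These markers were added after seeing the data. How reads shared between the paralogs Gbp2 and Gbp2b were assigned is not given in the sources used here.

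Gbp5, which promotes assembly of the NLRP3 inflammasome, was lowest of the 3 classes in tumour-like cells, at 12.9 and 15.05 CPM, and stood at 32.9 and 40.3 CPM in C1q-high macrophages. Its levels in C1q-high macrophages and low-tumour-RNA T cells (26.3 and 36.5 CPM) did not differ beyond counting error in either library. Gbp3 was highest in tumour-like cells (74.2 and 97.9 CPM), and its C1q-high macrophage (46.3 and 56.6 CPM) and low-tumour-RNA T cell levels (37.9 and 50.4 CPM) did not differ beyond counting error.

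Gbp4 was highest in low-tumour-RNA T cells (116 and 98.6 CPM), then tumour-like cells (63.2 and 94.7 CPM), then C1q-high macrophages (38.2 and 48.9 CPM). In the knockdown the first 2 of these did not differ beyond counting error. Gbp7 was highest in control low-tumour-RNA T cells, at 115 CPM, against 87.4 CPM in C1q-high macrophages and 69.4 CPM in tumour-like cells. In the knockdown its levels, 96.4, 82.0 and 86.9 CPM in the same order, did not differ beyond counting error.

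Among the immunity-related GTPases, the regulators Igtp and Irgm1 were highest in tumour-like cells in both libraries. Igtp stood there at 107 and 133 CPM, which is 2.29 and 2.36 times the C1q-high macrophage level, with low-tumour-RNA T cells between (87.0 and 74.5 CPM). Irgm1 stood at 113 and 134 CPM in tumour-like cells, 68.7 and 90.8 CPM in C1q-high macrophages and 68.3 and 59.2 CPM in low-tumour-RNA T cells. In the control, Irgm1 in these macrophages and T cells did not differ beyond counting error. The other regulator, Irgm2, spanned 20.3 to 28.3 CPM over these 3 sets of control cells and 26.9 to 29.9 CPM over the knockdown cells.

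The effector Iigp1 stood at 152 and 199 CPM in tumour-like cells and at 167 and 212 CPM in C1q-high macrophages, log2 differences of only -0.14 and -0.09 whose intervals nevertheless lay below 0. It was lower in low-tumour-RNA T cells (70.8 and 71.6 CPM). Highest in macrophages were thus Gbp2b, Gbp5 and Iigp1, in T cells Gbp4 and Gbp7, and in tumour-like cells Gbp2, Gbp3, Igtp and Irgm1. The highest of the 3 classes for these 9 genes was the same in both libraries and with either set of gates, although for Gbp4, Gbp5 and Gbp7 its lead over the next was within counting error where named above.

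**Figure D2:**
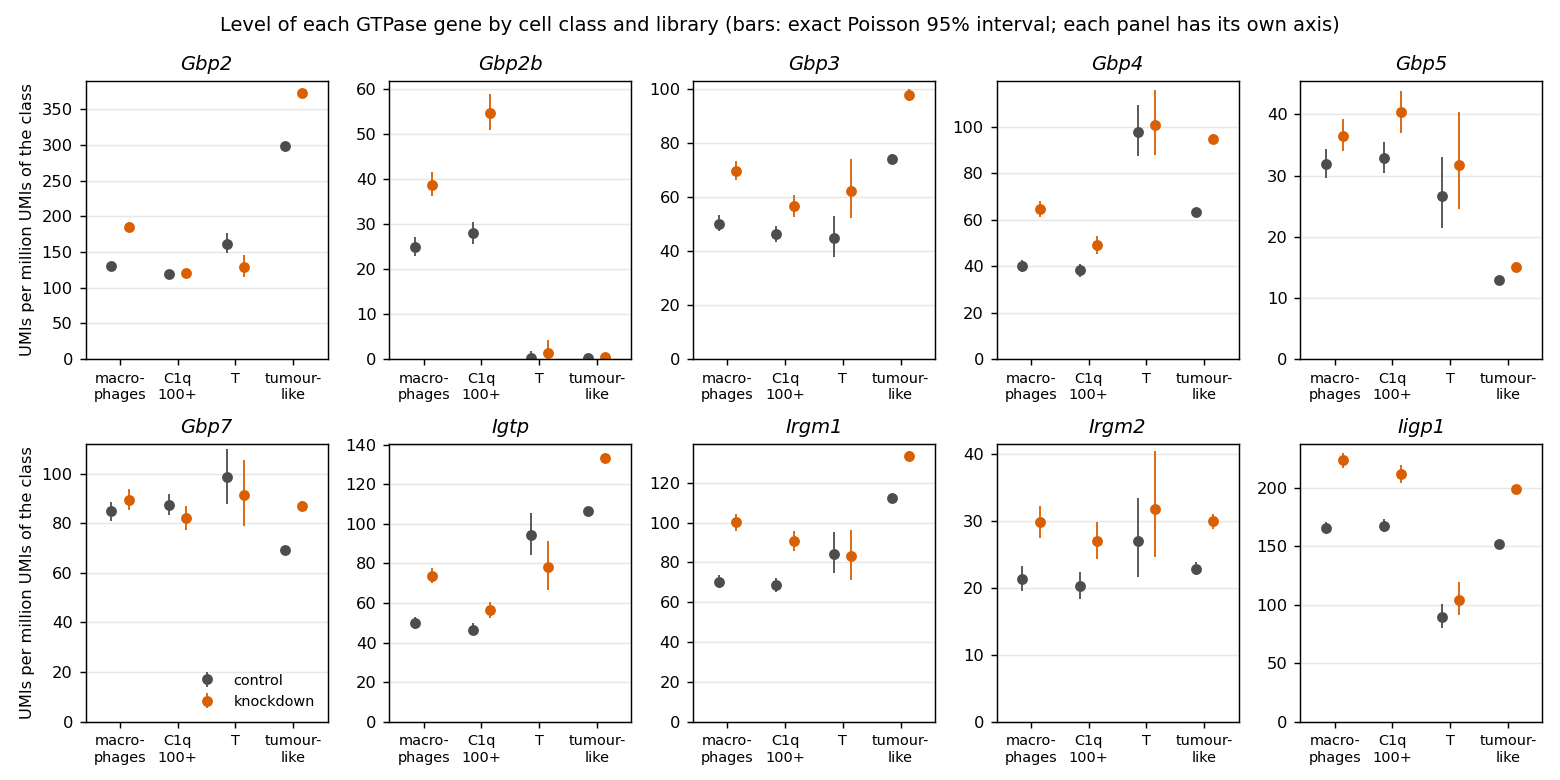
Level of each GTPase gene in CPM (vertical axes from 0, one scale per gene) in macrophages, in macrophages with C1q of at least 100 per 10000, in T cells and in tumour-like cells, for the control (grey) and knockdown (orange) library, with exact Poisson 95% intervals. Gbp2 is highest in tumour-like cells at 299 and 373 CPM, while Gbp2b is at or below 1.44 CPM in T cells and tumour-like cells.

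In tumour-like cells, where the counts were largest, all 9 GTPase genes that reached 100 UMIs stood higher in the knockdown. Their median log2 ratio was 0.32 (0.29 to 0.37), beside 0.04 over the 13350 genes with at least 100 UMIs. Here and below, brackets after a median of the GTPase genes hold the medians of the genes' own lower and upper counting limits. They are not an interval of the median itself. None of the 9 passed a 1.5-fold difference; of all genes, 2.86% were 1.5-fold higher and 0.869% 1.5-fold lower in the knockdown. At a looser limit, a log2 ratio of 0.32, 6 of 9 were called higher beside 9.6% of genes.

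Gbp4 had the highest ratio of the 9, with 63.2 CPM (61.7 to 64.8) in control cells and 94.7 CPM (92.6 to 96.8) in knockdown cells, or 0.58 (0.54 to 0.63), just short of 1.5-fold. Gbp3 (0.40), Iigp1 (0.39) and Irgm2 (0.39) came next, and Gbp7, Igtp and Gbp2 followed at 0.32, Gbp2 just under the looser limit. Irgm1 (0.25, 0.21 to 0.29) and Gbp5 (0.23, 0.11 to 0.34) were lowest. Every interval of the 9 genes lay above the all-gene median. The 10 macrophage markers summed to 461 and 569 CPM in these cells, against 69370 and 57050 CPM in macrophages, and 8 T cell markers to 4.23 and 4.48 CPM; their part in the result was not tested.

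In macrophages under the rule's gate, all 10 genes were above 0 on the log2 scale, with a median of 0.50 (0.39 to 0.60) beside 0.10 over 11750 genes. Gbp2b and Gbp4 passed 1.5-fold, 2 of 10, while 11.5% of all genes were 1.5-fold higher and 1.52% 1.5-fold lower. At the looser limit 8 of 10 were called higher, beside 23.9%. In C1q-high macrophages the median was 0.32 (0.17 to 0.45) beside 0.01 over 10711 genes, and 9 of 10 were above 0. There Gbp2b alone passed 1.5-fold, beside 2.36% of genes higher and 1.88% lower, and 5 of 10 were called at the looser limit, beside 9.47%.

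Gbp2b had the highest ratio of the 10 in C1q-high macrophages. Its level was 28.0 CPM (25.7 to 30.4, 550 UMIs) in control cells and 54.8 CPM (50.9 to 58.9, 739 UMIs) in knockdown cells, a ratio of 0.97 (0.81 to 1.13), against 0.64 (0.48 to 0.79) in the whole gate. Gbp2 ran the other way. Its ratio was 0.51 (0.44 to 0.58) in the whole gate, at 130 and 186 CPM, and 0.02 (-0.07 to 0.11) in C1q-high cells. Hmga2 stood at 29.3 and 87.1 CPM beside the first of these ratios and at 12.4 and 18.0 CPM beside the second.

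Of the other Gbp genes in C1q-high macrophages, Gbp4 had a ratio of 0.36 (0.21 to 0.51), Gbp3 and Gbp5 each 0.29, and Gbp7 -0.09 (-0.20 to 0.02). Of the immunity-related GTPases, Irgm2 stood at 0.41 (0.20 to 0.62), Irgm1 at 0.40 (0.29 to 0.52), Iigp1 at 0.34 (0.27 to 0.41) and Igtp at 0.28 (0.14 to 0.42). All 4 Irg genes and 4 of the 6 Gbp genes therefore had intervals above 0 in these cells. In the whole gate Gbp7 lay at 0.08 (-0.02 to 0.17), and its sign turned when libraries were scaled by the median of gene ratios.

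**Figure D3:**
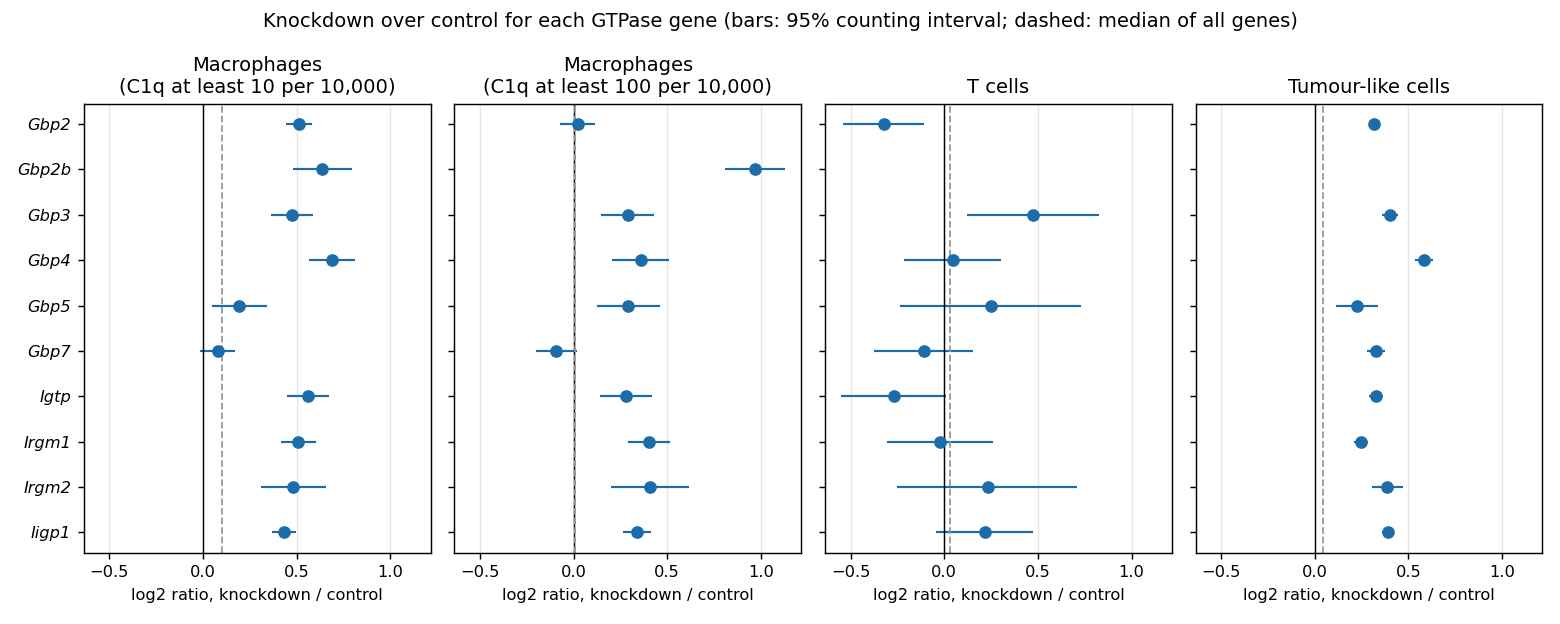
Log2 ratio of knockdown to control (horizontal axis) for each GTPase gene with at least 100 UMIs over both libraries, in 4 sets of cells; bars are 95% counting intervals, the black line is 0 and the dashed line the median of all genes. In tumour-like cells all 9 points lie between 0.23 and 0.58, while in C1q-high macrophages Gbp2b lies at 0.97 and Gbp2 at 0.02.

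Within the macrophage gate the members followed the C1q content of the cells in different ways. From cells with 10 to 20 C1q UMIs per 10000 to cells with 60 to 100, Hmga2 ran from 269 to 28.4 CPM in control cells and from 234 to 157 CPM in knockdown cells. Over the same bins Gbp2 ran from 252 to 118 CPM and from 384 to 213 CPM. Both genes were thus lower at 60 to 100 C1q UMIs than at 10 to 20, but not at every step. At 20 to 40 C1q UMIs, control Gbp2 was 266 CPM and knockdown Hmga2 239 CPM, each within counting error of the bin before. Above 100, Gbp2 was 119 CPM in control cells, within counting error of its level at 60 to 100, and 121 CPM in knockdown cells. Below 100, Gbp2b lay between 2.45 and 12.1 CPM in control cells, highest at 40 to 60 C1q UMIs. In knockdown cells it lay there between 2.17 and 13.7 CPM, highest at 20 to 40. It gave at most 30 UMIs in any of these lower bins, and its intervals in the 2 libraries overlapped in each of them. Iigp1 was higher in the knockdown in each of the 5 bins, with intervals that overlapped only in cells with 20 to 40 C1q UMIs. Cells of the same bin differed in depth between the libraries. Median depth was 962 and 2633 UMIs at 10 to 20 C1q UMIs, 1066 and 3088 at 20 to 40, and 3921.5 and 2471.5 at 60 to 100. The part of depth in these values was not tested.

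**Figure D4:**
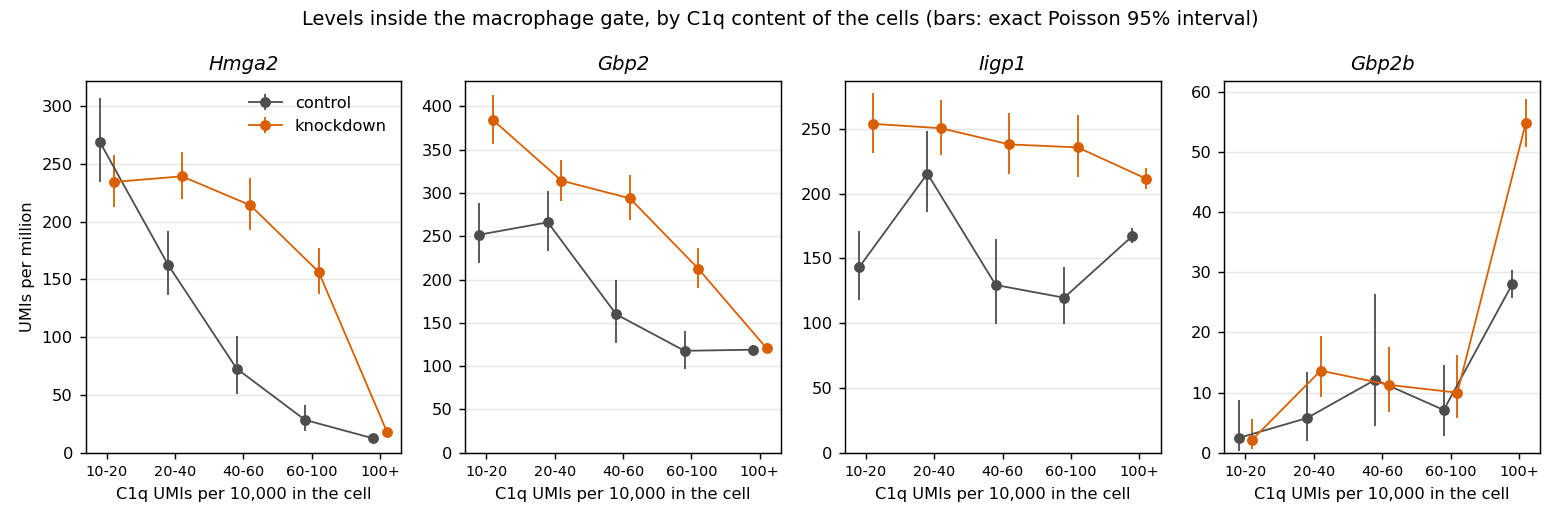
Levels of the tumour gene Hmga2 and of Gbp2, Iigp1 and Gbp2b (CPM, axes from 0) in cells of the macrophage gate, split by C1q UMIs per 10000; points carry exact Poisson 95% intervals, grey is control and orange knockdown. Hmga2 and Gbp2 are lower at 60 to 100 than at 10 to 20, and Gbp2b reaches 28.0 and 54.8 CPM in the bin of 100 and above.

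T cells showed no shared direction. Of the 9 genes with at least 100 UMIs, 5 were above 0, or 4 when scaled by the median of gene ratios. The median was 0.05 (-0.25 to 0.30) beside 0.03 over 6931 genes, and none passed 1.5-fold, beside 2.74% of genes higher and 2.28% lower. Of all genes past 1.5-fold, 54.6% were higher in the knockdown, or 39.5% when scaled by the median of gene ratios. Summed over the 10 genes, the level was 726 and 715 CPM, a ratio of -0.02 (-0.12 to 0.07). In low-tumour-RNA T cells 8 genes reached 100 UMIs, and 3 of these were above 0, or 2 with the other scaling. The median there was -0.22 (-0.57 to 0.17) beside 0.04 over 5197 genes, and the summed level was 643 and 575.5 CPM (-0.16, -0.29 to -0.03). Of the genes past 1.5-fold there, 55.6% were higher, or 37.2% with the other scaling.

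Gbp3 was higher in knockdown T cells, at 45.0 and 62.5 CPM (0.47, 0.12 to 0.82), with 0.41 (-0.08 to 0.90) in low-tumour-RNA cells. Gbp2 was lower, at 162 and 129 CPM (-0.32, -0.54 to -0.11). The other 7 intervals included 0. The Gbp2 value moved with the gate. It was -0.61 (-1.0 to -0.23) in low-tumour-RNA T cells, on 183 and 83 UMIs, where it alone of 8 tested genes was 1.5-fold lower and none was higher, beside 2.23% of genes lower and 2.79% higher. It was -0.03 without doublet removal and 0.10 when the Cd3 gate was set at 2 per 10000 in place of 2 UMIs. In the 374 and 300 low-tumour-RNA cells with Cd8a or Cd8b1 and no Cd4, Gbp2 stood at 94.4 and 47.7 CPM (-0.98, -1.49 to -0.50), with Hmga2 at 12.4 and 7.79 CPM. The part of tumour RNA in these values was not tested.

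Depth differed between libraries, so the share of cells with a member was also taken after thinning each cell to 2000 UMIs. At least 1 UMI of the 10 genes was then seen in 70.9% (exact 95% interval 69.7 to 72.2) and 79.3% (78.2 to 80.4) of tumour-like cells, and 3 or more of the 10 genes in 21.8% and 29.8%. Without thinning these shares were 98.6% and 99.4%, and 87.3% and 90.5%. In C1q-high macrophages the thinned share with any member was 57.7% and 63.3% (146 and 387 shallower cells left out), and 80.4% and 79.4% without thinning. In T cells it was 55.9% and 58.3% (179 and 184 left out), with overlapping intervals, and 75.7% and 69.2% without thinning. In low-tumour-RNA T cells the thinned share was 56.1% and 52.8% (133 and 146 left out), and 74.9% and 67.8% without thinning. The thinned shares were thus higher in the knockdown in tumour-like cells and C1q-high macrophages.

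Gbp2b was seen in 4.54% (3.82 to 5.34) and 8.80% (7.72 to 9.98) of thinned C1q-high macrophages, and in 9.57% and 16.0% without thinning. In thinned tumour-like cells it was seen in 0.0404% and 0.0389%, or 2 cells in each library, and the source of these UMIs was not tested. Gbp2 was seen in 40.8% and 47.3% of thinned tumour-like cells and Gbp5 in 3.21% and 3.23%.

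Macrophages differed among themselves in all 10 genes. Within C1q-high cells, groups were set by 2 gates, at least 5 UMIs per 10000 of Cxcl9, a chemokine induced by interferon gamma, and at least 1 UMI of Ifnb1, which encodes interferon beta. The Cxcl9 gate alone was passed by 666 and 567 cells and the Ifnb1 gate alone by 138 and 258, while 75 and 115 passed both and 2265 and 1958 neither. All 10 genes were higher in the cells of the Cxcl9 gate alone, called Cxcl9 cells, than in cells of neither gate in both libraries, with every interval above 0. Summed over the 10, the level was 1197 and 1300.0 CPM in Cxcl9 cells and 492 and 608 CPM in cells of neither gate.

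Gbp2b had the highest ratio between these groups. It stood at 74.8 CPM in control Cxcl9 cells and 13.3 CPM in control cells of neither gate (log2 difference 2.49, 2.23 to 2.76). In the knockdown the same groups held 121.8 and 32.1 CPM (1.92, 1.69 to 2.16). Gbp5 followed at 1.78 and 1.48, then Gbp2 at 1.73 and 1.36. The effector Iigp1 stood at 1.30 and 1.02, and the regulator Igtp at 1.24 and 0.96. Values were lower for Gbp7 (0.85 and 0.80) and for the other regulators, Irgm1 (0.77 and 0.76) and Irgm2 (0.56 and 0.56).

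Cells of the Ifnb1 gate alone, called Ifnb1 cells, held more Gbp5 than cells of neither gate (log2 difference 0.94, 0.40 to 1.44, and 1.03, 0.63 to 1.42) and more Gbp3 (0.53, 0.10 to 0.94, and 0.59, 0.25 to 0.93). For Gbp2b the difference was 0.40 (-0.41 to 1.12, on 17 UMIs in Ifnb1 cells) and 0.17 (-0.29 to 0.60), and both intervals included 0. Iigp1 stood on opposite sides of 0 in the 2 libraries, at -0.32 (-0.63 to -0.03) and 0.24 (0.05 to 0.42). Irgm2 (0.80, 0.34 to 1.23) and Gbp4 (0.50, 0.12 to 0.86) were higher in knockdown Ifnb1 cells, while their control intervals included 0. Gbp2 was lower in control Ifnb1 cells than in cells of neither gate (-0.46, -0.88 to -0.07) and stood at -0.09 (-0.38 to 0.20) in the knockdown. The intervals of Gbp7, Igtp and Irgm1 included 0 in both libraries. All 213 and 373 cells that held an Ifnb1 UMI were also set against all cells without one. Gbp5 then differed by 0.80 and 0.87, and Iigp1 again by -0.21 (-0.41 to -0.01) and 0.15 (0.01 to 0.29). The control intervals of Gbp3 (0.23, -0.12 to 0.56) and Gbp2 (-0.20, -0.44 to 0.03) now included 0. Knockdown values there were 0.40 (0.13 to 0.67) for Gbp3, 0.125 (-0.07 to 0.32) for Gbp2 and 0.31 (0.02 to 0.58) for Gbp2b. Detection of 1 Ifnb1 UMI depends on depth, and the median depth of the Ifnb1 cells was 6464.5 and 5030 UMIs, against 5746 and 4225 in cells of neither gate. Leaving out cells of both gates was chosen after seeing the data.

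The ratio of knockdown to control for Gbp2b was above 0 in each of these groups. In cells of neither gate it was 1.27 (1.00 to 1.55), on 185 and 283 UMIs. In Ifnb1 cells it was 1.05 (0.23 to 1.93), on 17 and 51 UMIs, and in Cxcl9 cells 0.70 (0.47 to 0.93). Gbp2 stood at -0.21 (-0.36 to -0.07) in Cxcl9 cells, 0.16 (0.03 to 0.30) in cells of neither gate and 0.54 (0.06 to 1.03) in Ifnb1 cells, on 55 and 116 UMIs. Hmga2 was 10.2 and 21.5 CPM in those Cxcl9 cells and 13.1 and 17.1 CPM in cells of neither gate, and its part was not tested. In Ifnb1 cells, where the Gbp2 ratio was highest, Hmga2 was 13.4 and 13.5 CPM, on 13 and 19 UMIs.

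**Figure D5:**
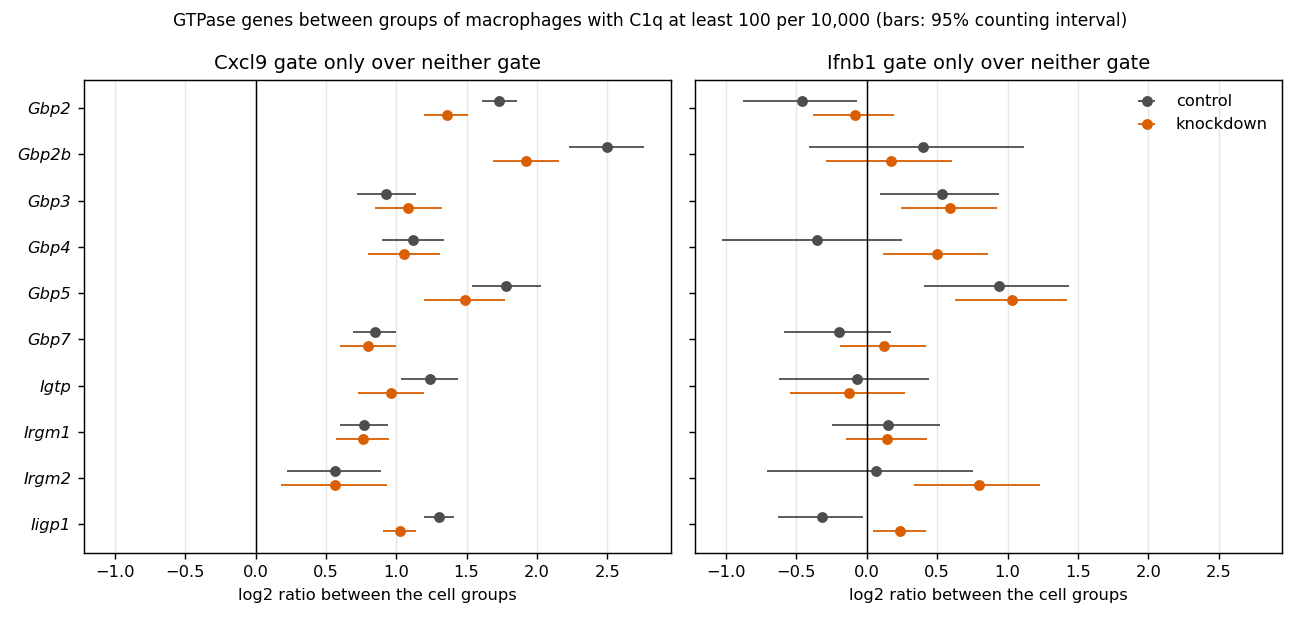
Log2 ratio of each GTPase gene between groups of C1q-high macrophages, in the control (grey) and knockdown (orange) library, with 95% counting intervals; left, cells of the Cxcl9 gate alone over cells of neither gate, right, cells of the Ifnb1 gate alone over cells of neither gate. On the left every point lies above 0, with Gbp2b at 2.49 and 1.92, and on the right Gbp5 is highest at 0.94 and 1.03.

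Among tumour-like cells, dividing cells, with at least 5 UMIs of Mki67 and Top2a per 10000, held 847 and 1054 CPM of the 10 genes together. The rest, which leaves out cells with at least 5 Krt16 UMIs per 10000, held 929 and 1207 CPM. Gbp4 and Iigp1 were lower in dividing cells in both libraries, with log2 differences of -0.30 and -0.33 for Gbp4 and of -0.32 and -0.38 for Iigp1. Gbp2 was also lower there, at -0.21 (-0.25 to -0.18) and -0.18 (-0.22 to -0.15), while Gbp5 stood at 0.25 (0.07 to 0.42) and 0.02 (-0.16 to 0.20). The 3 regulators were lower in dividing knockdown cells, Igtp at -0.24 (-0.30 to -0.18), Irgm1 at -0.18 (-0.24 to -0.12) and Irgm2 at -0.20 (-0.33 to -0.07). Their control values, -0.01, -0.02 and -0.04 in the same order, had intervals that included 0, and the difference between libraries was not tested. For Gbp3 and Gbp7 the difference was at most 0.07. The ratio of knockdown to control of the summed level was 0.32 (0.29 to 0.34) in dividing cells and 0.38 (0.36 to 0.39) in the rest.

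The genes upstream and beside these GTPases are given from lists by role, with the 1.5-fold rule and the all-gene shares above. Each list is also given under the whole macrophage gate, where 11.5% of all genes were 1.5-fold higher and the all-gene median was 0.10, and in T cells. Among the ligands, Ifng in T cells stood at 391 and 589 CPM, a ratio of 0.59 (0.48 to 0.71), and of 0.49 in low-tumour-RNA T cells. Ifnb1 in C1q-high macrophages stood at 34.4 and 79.4 CPM (1.21, 1.07 to 1.35). Both interferon genes thus stood higher in the knockdown in these cells. Of the 13 genes on that list, 4 reached 100 UMIs in C1q-high macrophages, and 1 of these, Ifnb1, was 1.5-fold higher; in T cells Ifng alone reached them. In the whole macrophage gate 5 reached them and 2 were 1.5-fold higher, with a median of 0.04. Il12b, a subunit of interleukin 12, was 4.78 and 4.60 CPM in C1q-high macrophages (-0.06, -0.54 to 0.42). In tumour-like cells 4 reached 100 UMIs, with 2 higher and 1 lower by 1.5-fold and a median of 0.33. There Ifnb1 (34 and 74 UMIs, 1.36) and Ifng (41 and 62 UMIs, 0.84) were higher, Il12b (105 and 12 UMIs, -2.89) was lower, and Il18 stood at -0.19. Each but Il18 was at most 1.02 CPM in these cells, and the source of these UMIs was not tested.

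Of 18 receptor and signalling genes, none passed 1.5-fold in C1q-high macrophages or tumour-like cells, and the medians were 0.17 and 0.19. All 18 were above 0 in C1q-high macrophages. In the whole macrophage gate none passed 1.5-fold either, but only 11 of 18 were above 0 and the median, 0.04, was below that of all genes. In T cells 1 of 17 was 1.5-fold higher and the median was 0.20, and in low-tumour-RNA T cells 1 of 16 with a median of 0.12. Of the receptor chains in tumour-like cells, Ifngr1 stood at 0.17, Ifngr2 at 0.04, Ifnar1 at 0.07 and Ifnar2 at -0.04 (-0.10 to 0.04). Of the transcription factors, Stat2 was at 0.40 in both sets of cells. Irf7 was at 0.32 in C1q-high macrophages and 0.49 in tumour-like cells, and Irf1 at 0.22 and 0.23. Socs1, the feedback inhibitor, was at 0.52 and 0.18.

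Of 18 targets mostly of type I interferon found in the matrices, 12 were 1.5-fold higher and none lower in C1q-high macrophages, with a median of 0.70. Examples were the antiviral Ifit2 (193 and 424 CPM, 1.13) and Mx2 (59.6 and 117 CPM, 0.97) and the ubiquitin-like modifier Isg15 (447 and 861 CPM, 0.95). In tumour-like cells 4 of 18 were 1.5-fold higher, namely Isg15, Oas2, Oas3 and Oasl1, and the median was 0.39. In the whole macrophage gate 6 of 18 were 1.5-fold higher and none lower, with a median of 0.50. In T cells 2 of 15 were higher, with a median of 0.22, and in low-tumour-RNA T cells none of 11 passed 1.5-fold, 6 were above 0 and the median was 0.00.

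Of 14 tested targets mostly of interferon gamma, 1 passed 1.5-fold in C1q-high macrophages, the class II gene H2-Eb1 (0.61), and the median was 0.36. The chemokine Cxcl9 stood the other way, at 506 and 458 CPM (-0.14, -0.19 to -0.10). In tumour-like cells the median was 0.27, with H2-Eb1 1.5-fold higher (0.60) and the tryptophan-degrading enzyme Ido1 1.5-fold lower (-0.69) on 149 and 78 UMIs. In the whole macrophage gate none of 14 passed 1.5-fold and the median was 0.17. In T cells 2 of 11 were 1.5-fold higher and 1 lower, with a median of 0.40, and in low-tumour-RNA T cells 1 was higher and 1 lower, with a median of 0.37.

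Of a list of 22 symbols of other GTPases of these families, 13 were in the matrices. In tumour-like cells 12 reached 100 UMIs, all 12 were above 0, none passed 1.5-fold and the median was 0.27. The Gbp4 neighbours Gbp8 (28.9 and 39.5 CPM, 0.45) and Gbp9 (36.6 and 43.8 CPM, 0.26) were among them. In C1q-high macrophages 8 were tested, 7 were above 0 and 2 passed 1.5-fold, Gm4841 (0.81) and Gvin1 (0.60), with a median of 0.52. In the whole macrophage gate 11 were tested, 10 were above 0 and 4 passed 1.5-fold, with a median of 0.43, and in T cells none of 4 passed it and the median was 0.10. Reads of these multigene families can be shared between near-identical copies, so their values are uncertain.

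The 10 autophagy conjugation genes, which direct these GTPases to membranes, had medians of -0.03 in C1q-high macrophages and -0.04 in tumour-like cells, with none past 1.5-fold. Atg5, part of the conjugation enzyme, stood at -0.15 and -0.03. The inflammasome genes, 8 and 7 of them tested, had medians of 0.16 and -0.04, with none past 1.5-fold. Among them, the cytokine Il1b in C1q-high macrophages was 177 and 260 CPM (0.55), whereas the protease Casp1 and the pore-forming Gsdmd were at 0.03 and 0.01. The 5 ubiquitin and adaptor genes of GTPase-coated vacuoles had medians of 0.13 and 0.06, with the ubiquitin ligase Rnf213 at 0.30 and 0.31. In the whole macrophage gate no gene of these 3 lists passed 1.5-fold, and the medians were -0.06 for autophagy, -0.07 for the inflammasome (3 of 8 above 0) and 0.04 for the vacuole genes. The inflammasome median was thus on opposite sides of 0 in the whole gate and in C1q-high cells. In T cells the medians were 0.00, 0.16 and -0.04, again with none past 1.5-fold.

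Across single cells the members varied together, given here as a description over cells that share a library and its depth. In tumour-like cells the Pearson r of each gene with the summed level of the other 9, on log-scaled UMIs per 10000, was 0.30 to 0.66 for every gene but Gbp2b, which was at 0.01 and -0.01. In C1q-high macrophages it ran from 0.21 to 0.44 over control cells and from 0.14 to 0.35 over knockdown cells, with Iigp1 highest in both. Other genes were ranked by the lower r of the 2 libraries. By that ranking the gene most like the summed members in C1q-high macrophages was Cxcl9 (r of 0.38 and 0.34 over 3144 and 2898 cells). Others among the closest were Calhm6, Serpina3g, Irf1, Ifi47, Gm4951, AW112010, Cxcl10 and H2-Ab1. In tumour-like cells the closest by the same ranking was Gm4951 (0.56 and 0.53), and others were Cxcl10, Ifit3, Ifi47, AW112010, Mndal, Ifitm3, Ifit1 and Parp14. Gm4951 is itself on the list of other GTPases of these families, whose reads can be shared between near-identical copies. These are sparse counts, and the macrophage values are weak.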

How the data were processed

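The authors deposited UMI counts per gene and cell barcode for each library. The matrix headers name Cell Ranger 6.1.0, whereas the submitters' processing notes name version 3.1.0; the genome build and annotation are not given in the sources used here. Of 11977 control and 12853 knockdown barcodes (165824226 and 138402860 UMIs), 10660 and 11450 were kept. Kept cells had at least 200 detected genes and at most 20% mitochondrial UMIs, and the highest Scrublet doublet scores (scanpy 1.11.5) were removed at 0.8% per 1000 cells, 1148 and 1322 cells. Cells passing more than 1 gate were left out of all classes. UMIs were summed per gene, class and library and divided by all UMIs of the class (CPM). At 95%, intervals are exact Poisson for levels, exact conditional binomial for ratios and Clopper-Pearson for shares. Brackets after a median of members hold the medians of the members' own lower and upper limits. Ratios and 1.5-fold calls use genes with at least 100 UMIs over both libraries. These steps were tested on simulated data. With 1 library per group no test was run. All members are named; genes of like pattern were taken from the 10 with the highest value of the lower r of the 2 libraries, and list genes were named as examples after their values were seen. The members and lists were chosen with earlier results of these data known. The macrophage groups by Cxcl9 and Ifnb1 were set after seeing the data. Some items are not reported here. Promoters are from RefSeq (GRCm38.p6). Alternatives varied the gates, doublet removal, scaling, count limit, fold limit and thinning depth.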

Additional observations from a re-analysis of the deposited data

Results flagged for a closer look

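Under the main gates Gbp2 differed in direction between cell classes. Its log2 ratio of knockdown to control was -0.32 in T cells, against 0.51 in macrophages and 0.32 in tumour-like cells, and the 3 intervals did not include 0. The values moved with the gates: Gbp2 stood at 0.02 (-0.07 to 0.11) in C1q-high macrophages and 0.03 in macrophages with low tumour RNA. In T cells it stood at -0.03 without doublet removal, -0.61 with low tumour RNA and 0.10 with the Cd3 gate per 10000 UMIs. With 1 library per group the difference between classes was not tested. The tumour gene Hmga2 was lower in the knockdown in T cells (152.5 and 66.3 CPM) and higher in macrophages (29.3 and 87.1 CPM), and its part in the Gbp2 values was not tested.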

How the results depend on the processing

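No paired analysis was possible because each group is 1 library. The median of the members in macrophages, 0.50, was 0.32 in C1q-high cells and 0.32 in cells with low tumour RNA, and in tumour-like cells it was 0.29 with scaling by the median of gene ratios. Member counts here are of genes higher in the knockdown only, while shares of all genes cover both directions. In macrophages 2 members were 1.5-fold higher in the main count. The number was 1 with median-of-ratios scaling (12% of all genes past 1.5-fold) and 0 with every cell weighted equally (10.3%). It was 1 in C1q-high cells, 1 with low tumour RNA, 8 at a log2 limit of 0.32 and 0 at 2-fold. In T cells 2 were higher with cells of more than 1 gate kept (5.8% of all genes) and 1 at the log2 limit of 0.32. By that same limit Gbp2 was lower in T cells, at -0.32. In tumour-like cells 1 was higher with stricter gates (3.09% of all genes), 1 with equal weights (4.03%) and 1 without shared barcodes (3.71%). At 20 UMIs it was 1, and at the log2 limit of 0.32 it was 6. The share of all genes past 1.5-fold in macrophages was 5.74% without doublet removal, 19.8% at 20 UMIs, 7.29% at 500 UMIs, 4.24% in C1q-high cells, 4.4% with low tumour RNA, and 30.2% and 6.48% past the looser and the 2-fold limit. In T cells it was 2.66%, 13.3% and 3.26% under the first 3 of these and 22.2% and 0.952% past the 2 limits. In tumour-like cells it was 9.91% at 20 UMIs, 1.34% at 500 UMIs and 12% and 0.989% past the 2 limits. The Gbp2 ratio in T cells turned to 0.10 with the Cd3 gate per 10000 UMIs, and the cause was not tested. The share of T cells with a member was 43.7% and 42.4% when thinned to 1000 UMIs and 81.1% and 74.6% at 4000, the opposite order to that at 2000. The C1q-high, low-tumour-RNA and shared-barcode settings were added after seeing the data.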

Other observations

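UMIs of the GTPases were also counted in 3 small gated classes, which also held UMIs of the tumour gene Hmga2. Summed over the 10 genes, monocyte-gated cells (159 and 37) stood at 628 and 915 CPM, dendritic-gated cells (32 and 25) at 494 and 924 CPM, and NK-gated cells (34 and 36) at 249 and 543 CPM, on 55 and 110 UMIs in the last. The tumour gene Hmga2 stood at 24.1 and 240.1 CPM in the monocyte gate, 19.8 and 140.7 CPM in the dendritic gate and 13.6 and 29.6 CPM in the NK gate, on 3 and 6 UMIs in the last, against 221 and 218 CPM in tumour-like cells. Both the GTPase sum and Hmga2 were thus higher in the knockdown in all 3 gates, although the Hmga2 intervals of the NK gate overlapped. Col3a1 stood at 672 and 703 CPM in the monocyte gate, with overlapping intervals. It was 428 and 633 CPM in the dendritic gate and 77.0 and 464 CPM in the NK gate. Tumour-like cells themselves held 913 and 1164 CPM of the 10 genes, and the part of tumour RNA in these levels was not tested.

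A few tumour-like cells, 69 and 14, held at least 5 UMIs per 10000 of Krt16, a stress keratin. In the control they held more Irgm2 (84.4 CPM, against 22.4 CPM in cells neither dividing nor Krt16-positive), Gbp5 (33.0 against 12.1 CPM), Irgm1 (279 against 111 CPM) and Igtp (244 against 105 CPM). In the knockdown Krt16 cells, log2 differences from the same comparison cells were 1.89 (1.01 to 2.65) for Gbp5, 0.76 (0.37 to 1.13) for Igtp, 0.65 (0.24 to 1.03) for Irgm1 and 0.02 (-1.19 to 1.00) for Irgm2, on 8 UMIs. Iigp1 stood at 0.55 (0.39 to 0.69) among control cells and -0.51 (-1.01 to -0.05) among knockdown cells by the same measure.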
